A study of Mus musculus with 16 samples.

Results

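The 33 genes described here encode the cell's machinery for making cholesterol and fatty acids. They were taken by symbol from the authors' table of 35275 genes, and all 33 were found and passed the filter on low values (a mean of at least 0.5 FPKM, fragments per kilobase, scaled to each library's depth, over the 16 libraries). By role they are 7 mevalonate enzymes, 11 sterol enzymes, 6 genes of sterol sensing and transport, and 9 fatty acid enzymes. They were measured in C2C12, an established line of mouse myoblasts able to fuse into myotubes in low serum, in a study that asked what the miR-206 family of muscle microRNAs does in these cells. Control cells were wild type and came as population 1 and population 2. The triple knockout (tKO) cells lacked the genes of miR-1a-1, of miR-1a-2 and of miR-206, and came as clone 1 and clone 2. All 4 lines were PAX7 NEG C2C12 cells per the labels. Each line was sampled as subconfluent myoblasts in growth medium (GM) with fetal bovine serum, and after 3 days in horse serum as myotubes (DM3). There were 2 replicates per line and stage (BR1 and BR2 in the titles, called cultures 1 and 2 here), hence 4 libraries in each of the 4 groups. The genotype rests on 2 clones against 2 populations, and the labels do not say how separate the cultures were, so p-values measure the spread between these libraries.

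Cholesterol is built from acetyl-CoA by way of mevalonate, farnesyl diphosphate, squalene and lanosterol, and fatty acids are built from the same acetyl-CoA by carboxylation, chain synthesis, elongation and desaturation. Both routes are switched on by the SREBP transcription factors, which SCAP escorts out of the endoplasmic reticulum when membrane sterol is low and which INSIG proteins hold back when it is high. Muscle cells that fuse need membrane, and serum lipoproteins are an outside source of cholesterol for cultured cells.

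The promoters are shown because SREBP factors act through short sites near the start of these genes, usually beside sites for the factors that bind CCAAT and GC boxes. RefSeq promoters of build GRCm38.p6, from 250 bases before to 50 after the start site, were matched for 26 of the 33 genes. Each motif was searched on both strands. The sterol regulatory element was spelled TCACNCCAC, or more loosely CACNCCAC, which it contains. Below, capitals mark CACNCCAC and CCAAT on either strand, in the promoters of Hmgcs1 (HMG-CoA synthase), Insig1 (the sterol-regulated retention protein) and Tm7sf2 (a sterol C14 reductase, the gene with the greatest rise among the 33).
Hmgcs1, chr13:119690101-119690400, plus strand: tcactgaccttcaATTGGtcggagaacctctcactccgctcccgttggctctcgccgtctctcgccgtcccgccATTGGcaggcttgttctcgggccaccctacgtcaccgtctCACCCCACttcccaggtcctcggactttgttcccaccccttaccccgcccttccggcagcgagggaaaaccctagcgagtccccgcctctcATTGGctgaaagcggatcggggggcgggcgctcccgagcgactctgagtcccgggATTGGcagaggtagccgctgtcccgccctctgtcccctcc
Insig1, chr5:28071162-28071461, plus strand: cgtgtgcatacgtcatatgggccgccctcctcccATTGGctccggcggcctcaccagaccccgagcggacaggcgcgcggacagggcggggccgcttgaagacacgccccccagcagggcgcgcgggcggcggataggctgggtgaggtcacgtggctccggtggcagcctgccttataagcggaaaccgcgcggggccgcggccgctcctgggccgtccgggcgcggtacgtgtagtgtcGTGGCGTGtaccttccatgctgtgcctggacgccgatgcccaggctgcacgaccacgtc
Tm7sf2, chr19:6067801-6068100, minus strand: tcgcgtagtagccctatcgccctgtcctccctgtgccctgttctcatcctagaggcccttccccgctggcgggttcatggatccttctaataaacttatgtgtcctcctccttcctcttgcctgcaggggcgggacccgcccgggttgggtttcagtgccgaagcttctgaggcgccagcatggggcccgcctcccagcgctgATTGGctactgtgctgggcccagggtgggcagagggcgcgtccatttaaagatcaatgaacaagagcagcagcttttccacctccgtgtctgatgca
TCACNCCAC was found in 1 of the 26 genes, Hmgcs1, where it began 137 bases before the start site, and in 1.39% of the 8491 tested genes with a promoter. CACNCCAC was found in 3 of the 26, namely Acat2, Hmgcs1 and Insig1, and in 7.48% of tested genes. CCAAT was found in 21 of the 26 against 43.4% of tested genes. The GC box GGGCGG was found in 22 of the 26 against 70.7%, and the E-box CACGTG in 5 of the 26 against 12%. The looser sterol element was searched after the stricter spelling had been counted.

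MicroRNAs of this family act through short seed matches in the 3′ UTRs of their targets, and such matches were counted in the 33 genes as a description of their letters. Whether the sites act in these cells was not tested. The mature miR-206-3p (RefSeq, GRCm38.p6, chr1:20679055-20679076, plus strand) is printed with its seed, bases 2 to 8, in capitals, and it is followed by matches to that seed in GENCODE release 21 3′ UTRs, with the matching letters in capitals. The 8-base site is ACATTCCA and the 7-base sites are ACATTCC and CATTCCA.
miR-206-3p: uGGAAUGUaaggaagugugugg
Insig1, chr5:28077026-28077055, plus strand: tcttctttggaACATTCCAtcccaggctgt
Elovl6, chr3:129636315-129636343, plus strand: gctgtcagtgaACATTCCgggcaagcaag
Elovl6, chr3:129636393-129636421, plus strand: atttctcgctgCATTCCAatcccagtgtg
Srebf2, chr15:82204287-82204315, plus strand: ttgttacgtttCATTCCAgtttttgtttt
Slc25a1, chr16:17925761-17925789, minus strand: cccagctcctcCATTCCAgaccccccgcc
Slc25a1, chr16:17925346-17925374, minus strand: tggcttcaccgCATTCCAggggctatagg
Osbp, chr19:11993668-11993696, plus strand: gggaaaataacCATTCCAgaggaagctat
Any such site was present in 9 of the 33 genes (27.3%) and in 19.0% of the 10806 tested genes with a 3′ UTR. Insig1 was the 1 gene of the 33 with the 8-base site (3.03%), which 4.46% of the tested genes with a 3′ UTR had. Elovl6, Fads1, Fads2, Fasn, Lss, Sc5d, Scd2 and Srebf2 had a 7-base site. Slc25a1, the mitochondrial citrate carrier, and Osbp, an oxysterol-binding protein, are outside the 33 and are shown because they had sites and were called between genotypes in DM3, Slc25a1 as higher and Osbp as lower in tKO cells. Of 43 tested other genes of the pathway, 8 (18.6%) had a site, and 0 had the 8-base site. Prkab1, the other such gene called in DM3 (as lower), had no site.

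The libraries held 22642563 to 56585952 fragments, and the 33 genes took 0.265% to 2.08% of them. The least covered of the 33 in any library still had 74 fragments, above the floor of 3 used for detection. All 9 myogenic differentiation markers found in the table (such as Myog, Ckm and Acta1) rose in DM3 in both genotypes and all 8 proliferation markers fell. Of 4 tested fibroblast markers (such as Col1a1 and Dcn) 3 rose in control cells and 4 in tKO cells, and the 5 listed summed to 502 to 1419 FPKM in GM libraries and 1689 to 3296 FPKM in DM3 libraries. Macrophage markers summed to 0.712 to 4.07 FPKM. Adipocyte markers summed to 4.17 to 15.6 FPKM per library, with Lep at 0 in every group. Hepatocyte markers (Alb, Apoa1 and Ttr) summed to 2.22 FPKM in control population 1 culture 2 and 5.51 FPKM in tKO clone 1 culture 2, both in GM, and to less than these in every other library. Their part in the results was not tested.

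More of the 33 genes rose than fell on differentiation in both genotypes. In control cells 18 of the 33 genes rose and 2 fell at an adjusted p under 0.05 (limma over all 11832 tested genes), where 23.2% of all tested genes rose and 38.3% fell. In tKO cells 22 of the 33 rose and 0 fell, where 24.9% of all tested genes rose and 36% fell. The median log2 difference of the 33 was 0.60 in control cells, beside -0.15 for all tested genes, and 1.06 in tKO cells, beside -0.12. Of the 33, 17 rose in both genotypes, while Ebp was called in control cells only and Hmgcs1, Lss, Msmo1, Srebf1 and Fasn in tKO cells only. With every library as a unit and no block, no gene of these 6 passed a test of the difference between genotypes. With line averages as units Hmgcs1 was called lower in tKO GM (limma adjusted p = 0.0218). In bulk RNA, fewer cells of a kind and less RNA per cell cannot be told apart. The fit with line as a block, which was added after the data were seen, gave Hmgcs1 and Srebf1 as higher and Stard4 as lower in control cells as well, and it lost Lss, Msmo1 and Srebf1 and gained Ebp in tKO cells. With median-of-ratios scaling, which moved the median of all tested genes in control cells from -0.15 to 0.01, 20 of the 33 rose and 1 fell (Elovl6), and all tested genes split into 3648 higher and 3615 lower in place of 2743 and 4529. In tKO cells that scaling gave 23 higher and 0 lower of the 33, and 3638 and 3537 of all tested genes in place of 2951 and 4257. The control count fell to 11 without population 1 and to 8 without population 2, all of them higher. The rises of Acaca, Cyp51, Ebp, Fads1, Insig1, Scd2 and Srebf2 and the falls of Elovl6 and Scap were lost in both of these fits. The rises of Dhcr7, Fdft1 and Insig2 were lost without population 2 only.

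**Figure D1:**
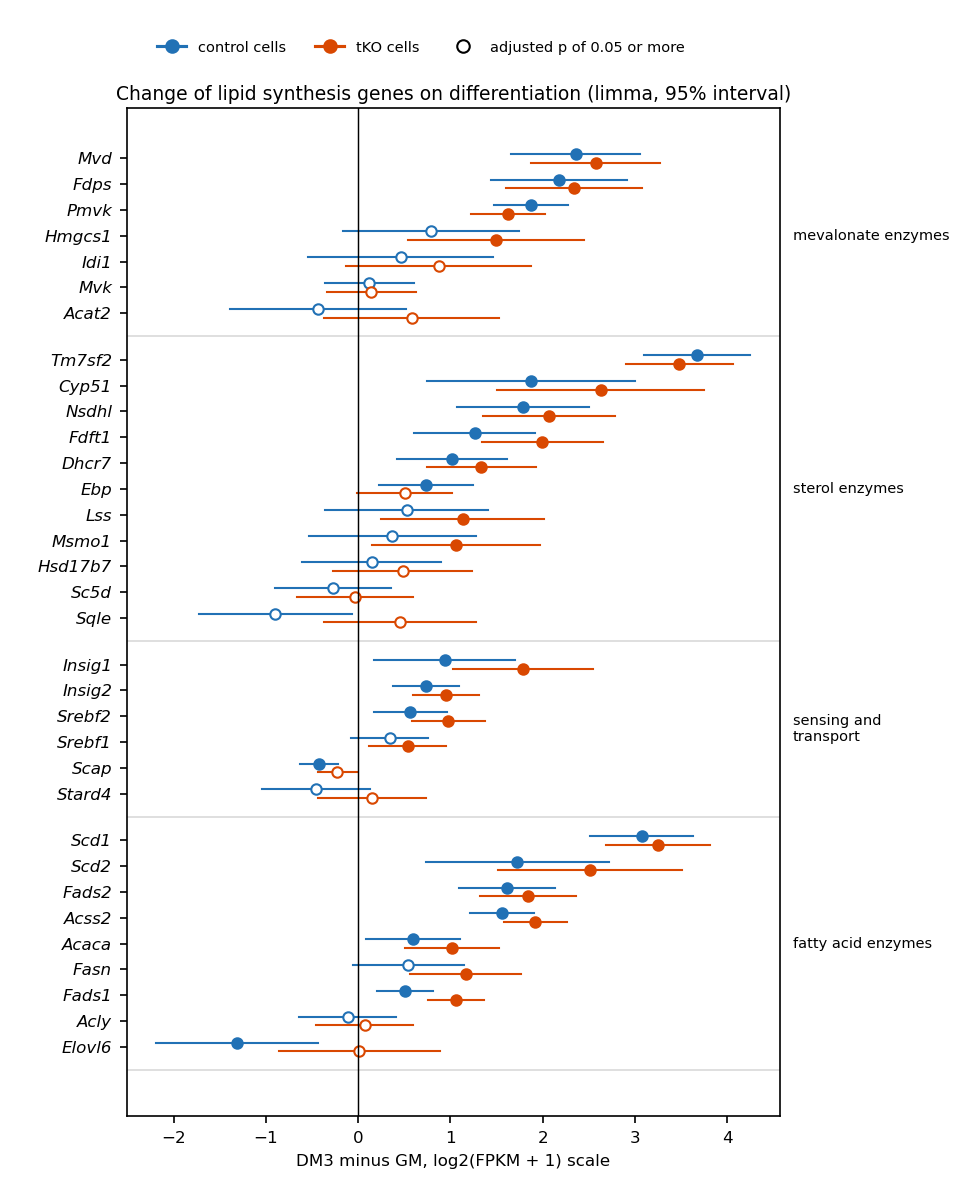
Change of each of the 33 genes from GM to DM3 on the log2(FPKM + 1) scale, in control cells (blue) and tKO cells (orange), ordered by role. Bars are 95% intervals from limma, and open circles have an adjusted p of 0.05 or more. Tm7sf2 and Scd1 lie farthest to the right in both genotypes, and Elovl6 lies left of 0 in control cells.

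Among the 7 mevalonate enzymes, 3 rose in control cells and 4 in tKO cells, and none fell. Mvd, mevalonate diphosphate decarboxylase, rose most of the 7. In GM its FPKM was 23.1, 12.9, 22.0 and 14.4 in control cells (here and below in the order line 1 culture 1, line 1 culture 2, line 2 culture 1, line 2 culture 2) and 18.1, 8.80, 17.8 and 6.16 in tKO cells. In DM3 it was 134, 68.0, 128 and 66.0 in control cells and 49.3, 91.6, 88.9 and 74.4 in tKO cells. The DM3 libraries were above every GM library in both genotypes, and culture 1 was the higher culture everywhere except in DM3 of clone 1. The log2 difference was 2.35 ± 0.33 (SE, n = 4 per group, limma adjusted p = 1.53e-05) in control cells, a 5.48-fold ratio of mean FPKM. It was 2.57 ± 0.33 (limma adjusted p = 6.06e-06) in tKO cells.

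Fdps, which makes farnesyl diphosphate, rose by 2.17 and 2.34 on the log2 scale in control and tKO cells, and Pmvk, phosphomevalonate kinase, by 1.87 and 1.62. Hmgcs1, the enzyme that forms HMG-CoA, had a difference of 0.79 ± 0.45 in control cells (limma adjusted p = 0.138) and rose by 1.5 ± 0.45 in tKO cells (limma adjusted p = 0.00874). Its tKO DM3 libraries spanned 24.0 to 169 FPKM, and the tKO change was 0.14 in culture 1 and 2.85 in culture 2. The tKO call was lost without clone 2 (limma adjusted p = 0.108) and with line and culture together as a block (0.0545), a fit added after the data were seen. Mvk, mevalonate kinase, differed by 0.12 and 0.14 and Idi1, the isopentenyl diphosphate isomerase, by 0.46 and 0.87. Neither was called in either genotype by the model without a block. Idi1 was called in both genotypes with line averages as units, and in tKO cells without clone 1 culture 1 in DM3. In control cells it was also called with line and culture together as a block.

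Acat2, the cytosolic thiolase that joins the acetyl-CoA units, had the lowest control difference of the 7. Its FPKM in control cells was 47.0, 34.8, 47.0 and 34.4 in GM and 43.4, 14.1, 47.9 and 25.7 in DM3. The tKO values were 40.8, 22.2, 43.3 and 19.8 in GM and 15.3, 89.6, 52.0 and 56.3 in DM3. The stages overlapped in both genotypes, and the tKO DM3 libraries ran from 15.3 to 89.6, the highest value of all 16. The log2 difference was -0.44 ± 0.45 in control cells (limma adjusted p = 0.414) and 0.58 ± 0.45 in tKO cells (limma adjusted p = 0.277). Without clone 1 culture 1 in DM3 the tKO difference was 1.08 (limma adjusted p = 0.0199). With line averages as units the tKO difference was called as well (limma adjusted p = 0.0406).

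**Figure D2:**
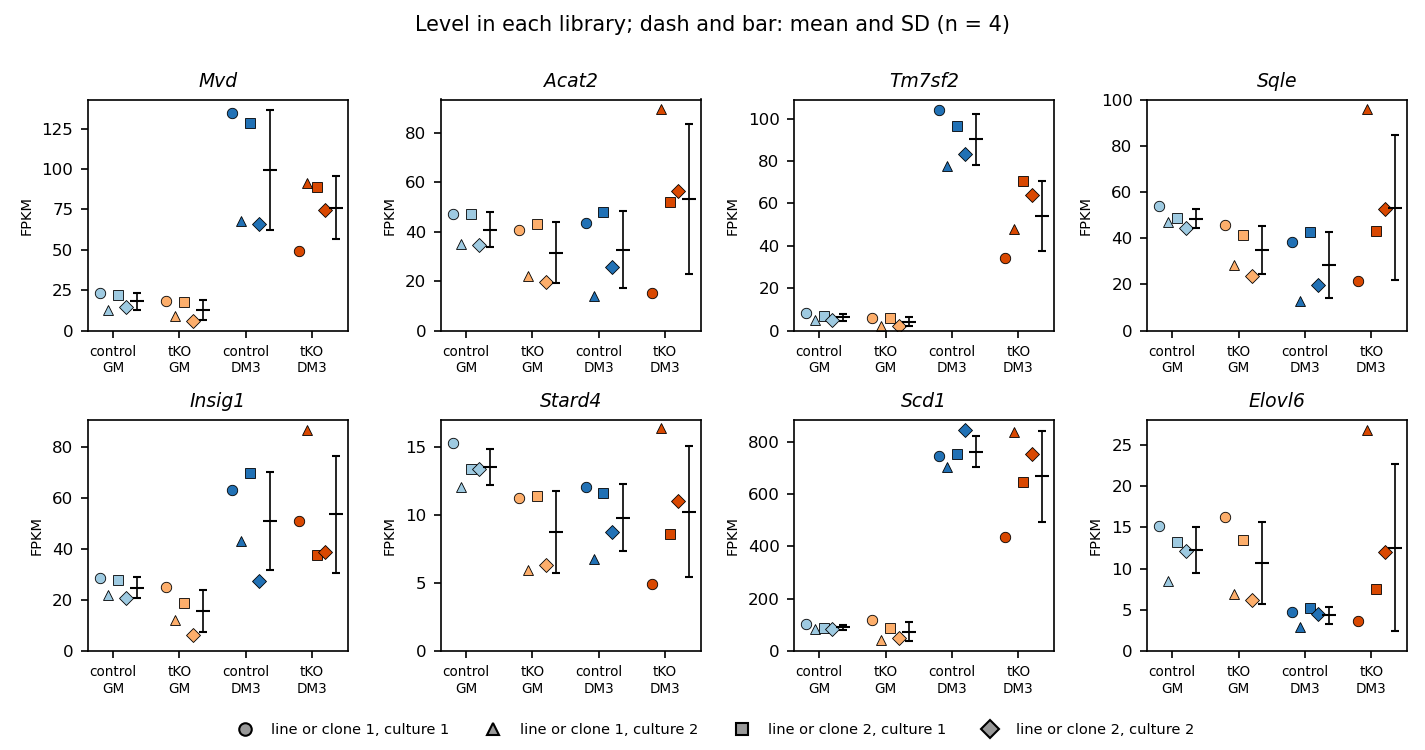
FPKM in each of the 16 libraries for the 8 genes with the greatest and least control change in each role, on linear axes from 0, with symbols for line and culture, and with the mean and SD (n = 4) of each group as a dash and bar. Mvd, Tm7sf2 and Scd1 have every DM3 library above every GM library of the same genotype, while Acat2, Sqle and Elovl6 spread widely in tKO DM3.

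Of the 11 sterol enzymes, 6 rose in control cells and 7 in tKO cells, and none fell. Tm7sf2 rose most of all 33. Its FPKM was 8.33, 4.76, 6.87 and 5.13 in control GM and 104, 77.6, 96.6 and 83.2 in control DM3. The tKO values were 5.92, 2.18, 6.02 and 2.34 in GM and 34.1, 48.1, 70.5 and 63.9 in DM3. Every DM3 library stood above every GM library, and within DM3 every tKO library stood below every control library. The log2 difference from GM to DM3 was 3.67 ± 0.27 in control cells (14.4-fold, limma adjusted p = 2.04e-08) and 3.48 ± 0.27 in tKO cells (13.1-fold, limma adjusted p = 3.51e-08).

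Cyp51, the lanosterol demethylase, rose by 1.87 and 2.63 on the log2 scale in control and tKO cells, and Nsdhl, which removes the C4 methyl groups with Msmo1, by 1.79 and 2.07. Fdft1, squalene synthase and so the entry to the sterol branch, rose by 1.26 and 1.99, and Dhcr7, which completes cholesterol, by 1.01 and 1.34. Ebp, the sterol isomerase, rose by 0.73 in control cells (limma adjusted p = 0.0149), and its difference in tKO cells was 0.50 (limma adjusted p = 0.0817). The Ebp call was lost without control population 2 culture 1 in DM3 (limma adjusted p = 0.0512) and with line averages as units (0.0635). It was also lost without population 1 (0.158) and without population 2 (0.131). Lss, lanosterol synthase, and Msmo1 rose in tKO cells, by 1.13 (limma adjusted p = 0.0266) and 1.06 (limma adjusted p = 0.0417). These calls depended on single libraries. Without clone 1 culture 2 or clone 2 culture 2 in GM, or without clone 1 culture 2 or clone 2 culture 1 in DM3, both were lost. The limma adjusted p was then 0.0514 to 0.0955 for Lss. For Msmo1, whose call was also lost without clone 2 culture 2 in DM3, it was 0.0655 to 0.155. Both calls were lost without clone 2 as well (limma adjusted p = 0.309 for Lss and 0.340 for Msmo1). The same held without the filter on low values (0.0590 and 0.0864), and for Msmo1 with only the compared libraries in the fit (0.0718). Hsd17b7 and Sc5d were called in neither genotype by the model without a block, with differences of 0.15 and 0.48 and of -0.27 and -0.04. Hsd17b7 was called in tKO cells with line averages as units and without clone 1 culture 1 in DM3.

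Sqle, squalene epoxidase and a rate-limiting step of sterol synthesis, did not move with its neighbours in the route. In control cells its FPKM was 54.0, 47.2, 48.9 and 44.3 in GM and 38.4, 12.9, 42.7 and 19.8 in DM3. The tKO libraries had 45.8, 28.5, 41.4 and 23.7 in GM and 21.3, 96.1, 43.0 and 52.8 in DM3. The control stages did not overlap, with DM3 the lower, and the tKO stages did. The log2 difference was -0.90 ± 0.39 in control cells (limma adjusted p = 0.0561) and 0.46 ± 0.39 in tKO cells (limma adjusted p = 0.325). Without either culture 1 library of control DM3 the control difference passed the test, at -1.08 (population 1 left out, limma adjusted p = 0.0348) and -1.13 (population 2 left out, limma adjusted p = 0.0248). It also passed with line averages as units (0.00123) and with only the compared libraries in the fit (0.0403). Line and culture together as a block, added after the data were seen, called it too (0.0103). With line averages as units the tKO difference of Sqle was called higher (limma adjusted p = 0.0250).

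Of the 6 genes of sterol sensing and transport, 3 rose and 1 fell in control cells, and 4 rose in tKO cells. Insig1 had FPKM of 28.7, 21.9, 28.0 and 21 in control GM and 63.3, 43.4, 70.1 and 27.6 in control DM3. The tKO libraries had 25.1, 12.1, 18.9 and 6.33 in GM and 51.1, 86.9, 37.7 and 39.0 in DM3. The tKO stages did not overlap, and the control stages did, through population 2 culture 2 in DM3. This was a log2 difference of 0.94 ± 0.36 in control cells (limma adjusted p = 0.0331) and 1.79 ± 0.36 in tKO cells (limma adjusted p = 0.000444). The control call was lost without culture 2 of either population in GM or culture 1 of either population in DM3, with limma adjusted p from 0.0704 to 0.103.

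Insig2, the second retention protein, rose by 0.74 and 0.95 on the log2 scale in control and tKO cells, and Srebf2, the SREBP of the cholesterol genes, by 0.57 and 0.98. Srebf1, the SREBP of the fatty acid genes, rose by 0.54 in tKO cells (limma adjusted p = 0.0265), and its control difference was 0.34 (limma adjusted p = 0.142). The tKO call of Srebf1 was lost without clone 1 culture 2 in GM, or clone 1 culture 2 or clone 2 culture 2 in DM3 (limma adjusted p 0.0692 to 0.104). That call was also lost without clone 1 (0.249), without the filter on low values (0.0569) and with only the compared libraries in the fit (0.0775). Scap, the escort, fell by 0.43 in control cells (limma adjusted p = 0.00143), and its difference in tKO cells was -0.23 (limma adjusted p = 0.0591). With median-of-ratios scaling the control difference of Scap was -0.23 (limma adjusted p = 0.107). Its control call was also lost without population 1 (limma adjusted p = 0.0560) and without population 2 (limma adjusted p = 0.0558).

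Stard4, a carrier of cholesterol in the cytosol, had the lowest control difference of the 6. Its FPKM was 15.3, 12.1, 13.4 and 13.4 in control GM and 12.1, 6.79, 11.6 and 8.77 in control DM3. In tKO cells it was 11.3, 5.98, 11.4 and 6.36 in GM and 4.92, 16.5, 8.62 and 11 in DM3. The control DM3 libraries lay below the GM libraries without overlap, the closest pair both being written 12.1, and the tKO stages overlapped. The change was -0.45 ± 0.28 in control cells (limma adjusted p = 0.164) and 0.15 ± 0.28 in tKO cells (limma adjusted p = 0.654). The control difference passed the test with line averages as units (limma adjusted p = 0.00593), with only the compared libraries in the fit (0.0205), and with line as a block (0.0299), the last added after the data were seen.

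Of the 9 fatty acid enzymes, 6 rose and 1 fell in control cells, and 7 rose in tKO cells. Scd1, a stearoyl-CoA desaturase that makes oleate, had FPKM of 103, 83.3, 88.0 and 85.0 in control GM and 744, 703, 754 and 844 in control DM3. In tKO cells it had 119, 41.3, 87.3 and 47.7 in GM and 435, 837, 645 and 755 in DM3. Every DM3 library was far above every GM library, and within DM3 clone 1 culture 1 was the lowest. From GM to DM3 the log2 difference was 3.07 ± 0.26 in control cells (8.47-fold, limma adjusted p = 8.79e-08) and 3.25 ± 0.26 in tKO cells (9.05-fold, limma adjusted p = 4.72e-08).

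Scd2, a second stearoyl-CoA desaturase, had the highest mean FPKM of the 33 in all 4 groups, 254 in control GM, 181 in tKO GM, 850 in control DM3 and 864 in tKO DM3. It rose by 1.73 and 2.51 on the log2 scale in control and tKO cells. The desaturases of polyunsaturated fatty acids rose as well, Fads2 by 1.61 and 1.84 and Fads1 by 0.51 and 1.06. Acss2, which makes acetyl-CoA from acetate, rose by 1.56 and 1.92 from the lowest GM level of the 33 (1.97 FPKM in control cells). Acaca, the acetyl-CoA carboxylase that commits carbon to fatty acids, rose by 0.60 (limma adjusted p = 0.0403) and 1.01 (limma adjusted p = 0.00164). The control call of Acaca was lost without any of 6 libraries (limma adjusted p 0.0544 to 0.120), all but culture 1 of population 1 in GM and culture 2 of population 1 in DM3. Fasn, fatty acid synthase, rose by 1.17 in tKO cells (limma adjusted p = 0.00206), and its control difference was 0.54 (limma adjusted p = 0.107). Acly, which splits exported citrate into acetyl-CoA, differed by -0.11 and 0.07 and passed the test in neither genotype.

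Elovl6, which lengthens palmitate to stearate, was the 1 enzyme of the 33 called lower in control cells. Its FPKM was 15.2, 8.52, 13.3 and 12.1 in control GM and 4.73, 2.88, 5.26 and 4.46 in control DM3. In tKO cells it was 16.2, 6.92, 13.5 and 6.14 in GM and 3.67, 26.9, 7.55 and 12.1 in DM3. The control stages were separate, and the tKO DM3 libraries ran from 3.67 to 26.9, both of these in clone 1. The log2 difference was -1.31 ± 0.41 in control cells (limma adjusted p = 0.0115) and 0.01 ± 0.41 in tKO cells (limma adjusted p = 0.983). The difference between those changes was 1.32 with a 95% interval of 0.09 to 2.56 (limma adjusted p = 0.423). The control call of Elovl6 was lost without population 1 (limma adjusted p = 0.152) and without population 2 (limma adjusted p = 0.114).

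Whether a gene of the 33 was called between genotypes depended on the fit. The model with every library as a unit and no block called none. In GM 0 of the 33 passed limma's test (2.06% of all tested genes did), as with voom on the fragment numbers. An unadjusted p under 0.05 was found for 7 of the 33 and for 2076 of the 11832 tested genes. The differences were nevertheless mostly of 1 sign in GM, 31 of the 33 below 0 with a median log2 difference of -0.36, beside -0.01 for all tested genes. The 2 above 0 were Pmvk (0.10) and Acss2 (0.03). For 4 of the 33 (Srebf1, Stard4, Hsd17b7 and Scap) every tKO library was below every control library, as for 8.62% of all tested genes, and for 0 every tKO library was above. Hmgcs1 had the lowest difference, -0.89 ± 0.45, with 54.1, 32.7, 43.8 and 42.7 FPKM in control GM and 33.4, 17.6, 28.9 and 15.3 in tKO GM. The groups overlapped only through control population 1 culture 2, and the limma adjusted p was 0.324. With line averages as units 3 of the 33 (76 of all tested genes) were called lower in tKO GM, Hmgcs1 (limma adjusted p = 0.0218), Fdft1 (-0.68, limma adjusted p = 0.0382) and Stard4. With culture number blocked within each stage 1 of the 33 (436 of all tested genes) was, Srebf2 (-0.53).

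In DM3 0 of the 33 passed limma's test (3.38% of all tested genes did), as with voom. An unadjusted p under 0.05 was found for 4 of the 33 and for 1990 of the 11832 tested genes. Here 18 differences were above 0 and 15 below, with a median of 0.03 beside 0.01 for all tested genes. Acss2 was the 1 gene with every tKO library above every control library, as for 4.22% of all tested genes. Its FPKM was 7.24, 8.19, 7.78 and 7.79 in control DM3 and 11.4, 12.4, 8.77 and 9.60 in tKO DM3, a log2 difference of 0.39 ± 0.16 (limma adjusted p = 0.228). Tm7sf2 was the 1 gene with every tKO library below, as for 4.30%, with a difference of -0.77 ± 0.27 (limma adjusted p = 0.150). Elovl6 (1.07 ± 0.41, limma adjusted p = 0.198) and Sqle (0.84 ± 0.39, limma adjusted p = 0.289) were the other 2 with an unadjusted p under 0.05, and their groups overlapped. Without clone 1 culture 1 the Elovl6 difference was 1.48 (limma adjusted p = 0.0278). Without clone 2 the count was 3 of the 33, and it included Tm7sf2 (-1.13, limma adjusted p = 0.0237). With culture number blocked within each stage Tm7sf2 was called as well (limma adjusted p = 0.0285). With line averages as units Elovl6 (limma adjusted p = 0.0188) and Sqle (limma adjusted p = 0.0448) were called.

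The interaction of genotype with stage, which uses the same 16 libraries, was called for 0 of the 33 by limma (0.254% of all tested genes) and by voom. It was above 0 for 30 of them with a median of 0.36, beside 0.03 for all tested genes. The 2 cultures differed in this. In culture 1 the median change of the 33 from GM to DM3 was larger in control cells (0.75) than in tKO cells (0.48). In culture 2 it was larger in tKO cells (1.93) than in control cells (0.45). An unadjusted p under 0.05 was found for 3 of the 33 (Fads1, Sqle and Elovl6) and for 1278 of the 11832 tested genes. Between the 2 clones limma called 0 of the 33 (1.05% of all tested genes), 1 having an unadjusted p under 0.05 (2014 of all tested genes did). Between the 2 control populations it called 0 of the 33 and 0% of all tested genes. There 0 of the 33 had an unadjusted p under 0.05 (104 of all tested genes did).

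**Figure D3:**
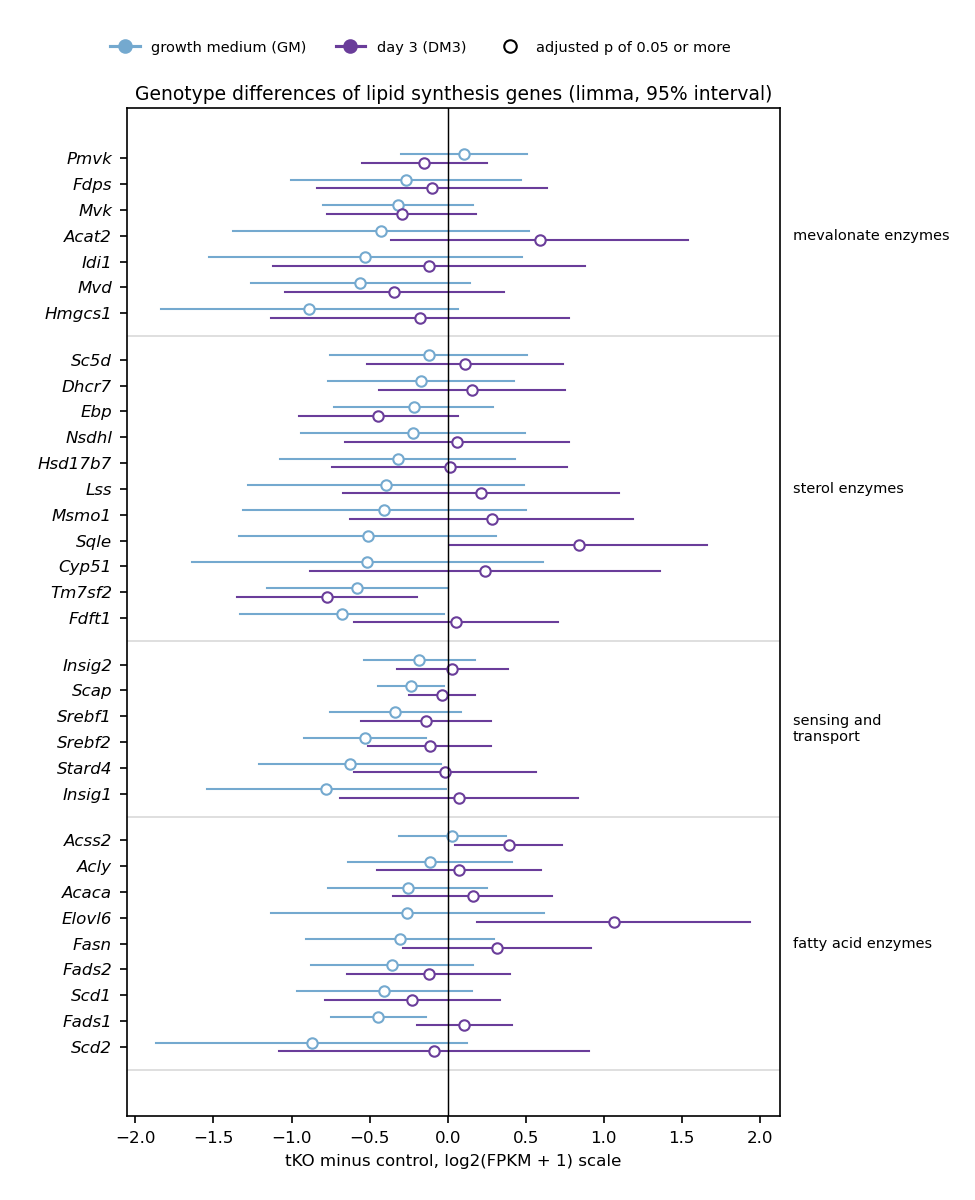
Difference of each of the 33 genes between tKO and control cells on the log2(FPKM + 1) scale, in GM (light blue) and DM3 (purple), ordered by role. Bars are 95% intervals from limma with every library as a unit and no block. Every circle is open, since no gene passed the adjusted test in that fit. In GM 31 of the 33 points lie below 0, and in DM3 they fall on both sides of 0.

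The genotype differences in DM3 had opposite signs in the 2 cultures. In culture 1, 30 of the 33 genes were lower in tKO cells with a median log2 difference of -0.66. For 24 of the 33 both tKO libraries were below both control libraries, as for 22.6% of all tested genes. In culture 2, 29 were higher with a median of 0.73, and for 25 both tKO libraries were above both control libraries, as for 34.5% of all tested genes. All tested genes had medians of -0.04 and 0.07 in these cultures. Hmgcs1 had a difference of -1.59 in culture 1 and 1.23 in culture 2. In GM the sign was shared. In culture 1, 24 of the 33 were below 0 with a median of -0.18, and 17 had both tKO libraries below both control libraries, as 23.2% of all tested genes did. In culture 2, 33 of 33 were below 0 with a median of -0.58, and 31 had both tKO libraries below, as 33.3% of all tested genes did.

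The differentiation change was seen in both cultures, with unequal size, and the genotype with the larger median change was not the same in the 2 cultures. In control cells 28 of the 33 were above 0 in culture 1 (median 0.75) and 23 in culture 2 (median 0.45). In tKO cells 22 were above 0 in culture 1 (median 0.48) and 32 in culture 2 (median 1.93). All tested genes had medians of -0.17, -0.14, -0.21 and -0.04 in these 4 comparisons.

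The 33 genes moved together between cultures of the same line. Culture 1 was the higher for 28 and 30 of the 33 in the 2 control populations in GM, and for 31 and 32 in the 2 tKO clones. It was also the higher for 31 and 30 in the control populations in DM3. In tKO DM3 this was not so. Clone 1 had 31 of the 33 higher in culture 2, with a median log2 difference between cultures of -1.29, and clone 2 had 16 higher in culture 1 and 17 in culture 2, with a median of -0.05. The medians were 0.34 and 0.21 in control GM, 0.70 and 0.78 in tKO GM, and 0.74 and 0.49 in control DM3. Over all tested genes the share higher in culture 1 lay between 35.9% and 58.0% in these 8 line and stage pairs. Acss2 was higher in culture 1 in the fewest of the 8 pairs, 2, and most of the 33 in 6 or 7.

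Markers of myogenic differentiation varied between these libraries too. In tKO DM3 the mean log2(FPKM + 1) of the 33 genes was 4.88, 6.18, 5.67 and 5.77, and that of the 9 myogenic markers was 6.76, 5.42, 6.41 and 5.25. Clone 1 culture 1 thus held the lowest mean of the 33 genes and the highest mean of the myogenic markers. In control DM3 the 33 genes had 5.88, 5.13, 5.92 and 5.38 and the markers 6.14, 6.27, 5.73 and 5.91. Clone 1 culture 1 also had the lowest mean of the proliferation markers in DM3, 3.18, where the other 7 libraries had 3.91 to 4.49. The part of these differences in the results on the 33 genes was not tested.

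**Figure D4:**
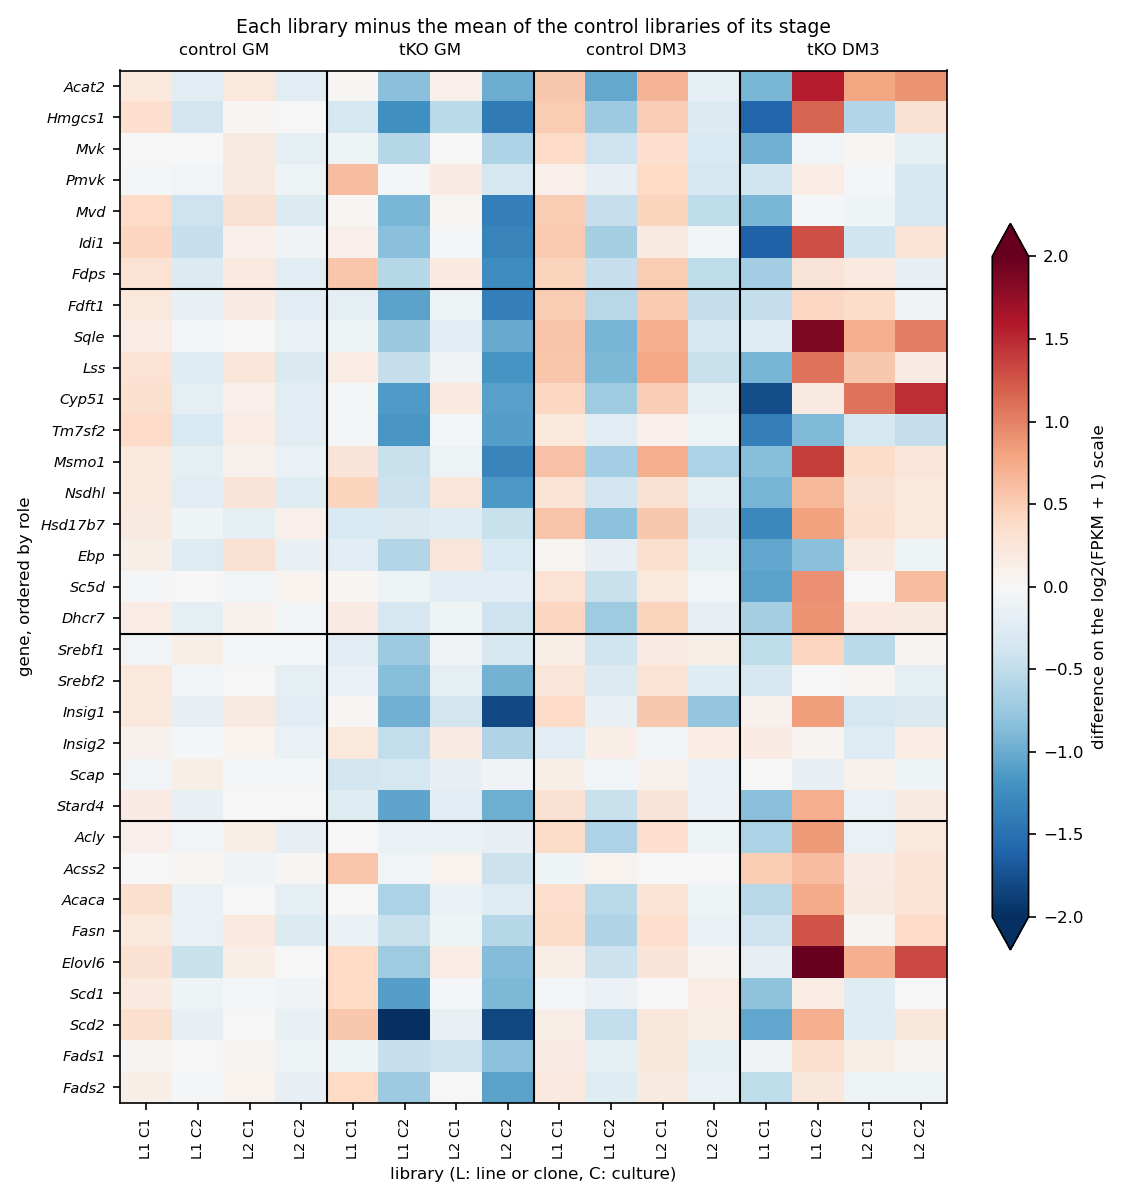
Each library's log2(FPKM + 1) minus the mean of the control libraries of its stage, for the 33 genes in rows by role and the 16 libraries in columns (red higher, blue lower). The tKO DM3 library of clone 1 culture 1 is low for most genes and culture 2 of the same clone is high for most, while both GM libraries of tKO culture 2 are low.

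The list of 52 other genes of the pathway, of which 43 were tested, moved in both directions. In control cells 17 of the 43 rose and 15 fell, beside 23.2% and 38.3% of all tested genes, with 25 above 0 and a median log2 difference of 0.11. In tKO cells 17 rose and 9 fell, beside 24.9% and 36% of all tested genes, with 25 above 0 and a median of 0.14. The greatest changes in control cells included rises of Acsl3, an acyl-CoA synthetase (2.48 in control and 3.16 in tKO cells), of Lpin1, a phosphatidate phosphatase (2.14 and 2.15), and of Lipa, the lysosomal acid lipase that frees cholesterol from its esters (1.32 and 1.64). They also included falls of Fabp5, a fatty acid binding protein (-1.80 and -2.04), of Pdss1, which starts the ubiquinone side chain (-1.76 and -2.05), and of Lbr, the nuclear envelope protein with the same reductase activity as Tm7sf2 (-1.74 and -1.67). Lbr and Tm7sf2 thus changed in opposite directions at the same step.

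Between genotypes limma called 3 of the 43 in DM3, Slc25a1 as higher in tKO cells and Osbp and Prkab1 as lower. Slc25a1, which carries citrate out of mitochondria to Acly, had FPKM of 39.6, 40.8, 39.1 and 34.4 in control GM and 42.0, 32.5, 41.7 and 29.6 in tKO GM. In DM3 it had 41.6, 38.2, 45.1 and 40.5 in control cells and 122, 149, 143 and 130 in tKO cells. The 4 tKO DM3 libraries stood apart from the other 12, in both cultures of both clones. The mean was 41.4 ± 2.88 FPKM in control DM3 and 135.8 ± 12.6 FPKM in tKO DM3 (SD, n = 4 each), a 3.28-fold ratio, with a log2 difference of 1.69 ± 0.12 (SE, limma adjusted p = 1.37e-07, and 8.26e-08 to 0.000793 over 23 alternatives). The difference was 1.58 in culture 1 and 1.79 in culture 2. The interaction was 1.78 ± 0.17 (limma adjusted p = 9.84e-05), and without control population 1 it was 1.66 (limma adjusted p = 0.137).

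Its neighbours in the citrate route among the 33 genes were not called between genotypes in DM3 with every library as a unit and no block. Acly had 76.3, 38, 74.5 and 54.6 FPKM in control DM3 and 37.6, 107, 53.3 and 68.0 in tKO DM3, a log2 difference of 0.07 with a 95% interval of -0.45 to 0.60. Acaca differed by 0.16 with an interval of -0.35 to 0.67, and Fasn by 0.32 with an interval of -0.29 to 0.92. Osbp and Prkab1, a subunit of the kinase AMPK that restrains both routes, were lower in tKO DM3. Osbp had 40.1, 36.2, 38.6 and 39.2 FPKM in control cells and 24.9, 25.0, 34.2 and 26.1 in tKO cells, a difference of -0.48 ± 0.11 (limma adjusted p = 0.0242). Its call was lost in 11 of 23 alternatives (limma adjusted p 0.00390 to 0.416). Among these it was lost without any of 5 libraries of DM3, namely culture 1 of each control population, culture 2 of population 2, and culture 2 of each clone, with limma adjusted p of 0.0554 to 0.0771. Prkab1 had 10.6, 11.5, 10.5 and 11.2 FPKM in control cells and 7.96, 6.41, 8.65 and 8.06 in tKO cells, a difference of -0.45 ± 0.10 (limma adjusted p = 0.0174). Its call was lost in 7 of 23 alternatives, among them without culture 2 of control population 1 or of clone 1 in DM3 (limma adjusted p 0.0543 to 0.0620).

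**Figure D5:**
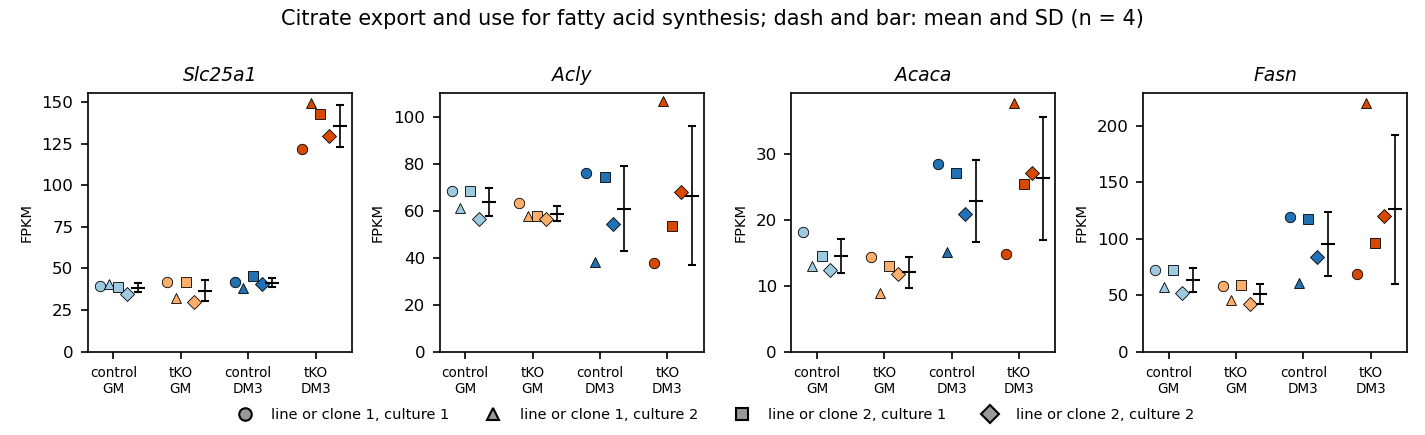
FPKM of Slc25a1, Acly, Acaca and Fasn in the 16 libraries, on linear axes from 0, with symbols for line and culture, and with the mean and SD (n = 4) of each group as a dash and bar. The 4 tKO DM3 points of Slc25a1 lie at 122 to 149 FPKM, above all others, while those of Acly overlap the control points.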

How the data were processed

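Poly(A) RNA of 16 libraries was sequenced, and the authors deposited 1 table of FPKM values with a column per library, unpooled. The submitters' processing notes name STAR, DESeq and mm10. Versions, the counting program, strand and annotation release are not given in the sources used here, so overlapping genes and close copies are uncertain. Values times gene length were whole multiples of 1 step per library in 100% of cases (tolerance 0.01). Fragment numbers were read from these steps, and the floor on them covers counting error only. The intervals given are from limma and measure the spread between libraries. Tests were run with limma 3.58.1 (R 4.3.3) on log2(FPKM + 1), which understates changes of low genes. They covered all 4 groups and 11832 genes with a mean of at least 0.5 FPKM, with Benjamini-Hochberg adjustment. The fit was first run on simulated libraries without line or culture effects. That check cannot show how the tests behave with the spread seen between these libraries. Replicates of a group differed beyond sampling noise (chi-square per degree of freedom 20.5 to 255.9 in 24 pairs). No block was used. A line gives both stages of its genotype, so line as a block was an added alternative. The difference between culture 1 and culture 2 of a line correlated between its stages at -0.13 to 0.27 (mean 0.09). A line's own level cancels in that difference, so the pairing of stages by line was not measured. The same difference correlated between lines of different genotype at 0.28 to 0.41 (mean 0.37) in GM and -0.28 to 0.71 (mean 0.30) in DM3. There are only 2 culture numbers and the labels state no pairing. Genes given in every library were, per role, those with the greatest and least control change and any called between genotypes. From the other pathway genes, the 6 most changed in control cells and those called between genotypes were named. Hmgcs1, Acss2 and Acly were added after their values were seen. The members and lists were chosen with earlier results of these data known. Alternatives covered pseudocount, filter, scaling, voom, blocks and left-out libraries or lines. Figures used Python 3.11.15 and matplotlib 3.10.9.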

Additional observations from a re-analysis of the deposited data

Results flagged for a closer look

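In groups of 4 libraries, 3 of 168 gene and group pairs had a library far from the other 3 by Dixon's criterion, which chance meets in about 1 of 20 groups. Srebf1 was highest in control GM in population 1 culture 2, at 25.4 FPKM where the others had 22.7 to 23.1. In control DM3 the same population and culture had the lowest Srebf1, 22.5 FPKM beside 32.5 to 33.7. Osbp was highest in tKO DM3 in clone 2 culture 1, at 34.2 FPKM beside 24.9 to 26.1. Slc25a1 had a different change from GM to DM3 in the 2 genotypes, with an interaction of 1.78 on the log2 scale (limma adjusted p = 9.84e-05). It rose by 1.88 in tKO cells, and its control difference was 0.10 (limma adjusted p = 0.463). With median-of-ratios scaling the control difference was 0.31 and was called (limma adjusted p = 0.0277). No cause was tested for these values.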

How the results depend on the processing

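Over the results on single genes and their alternatives, 1759 values kept their direction and side of the threshold, 84 calls were lost, 20 were gained and 10 changed sign. The counts of the 33 genes called are not part of that tally. The number of the 33 genes called for differentiation in control cells was 20, and it was 11 without control population 1 and 8 without population 2, with fewer libraries in the fit. Leaving out 1 library gave 18 to 21 in control cells and 20 to 26 in tKO cells. Between genotypes the count of 0 became 3 in GM (Hmgcs1, Fdft1 and Stard4) and 2 in DM3 (Elovl6 and Sqle) with line averages as units. Of all tested genes that fit called 21 higher and 76 lower in GM, and 68 and 63 in DM3. Without clone 2 the DM3 count was 3, where 528 of all tested genes were called higher and 608 lower. Leaving out 1 library in DM3 gave 0 to 1, the 1 being Elovl6 without clone 1 culture 1. The causes were not tested.

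A replicate block of culture number gave counts of 20, 22, 0 and 0 for differentiation in control and tKO cells and for genotype in GM and DM3. When that replicate block was fitted separately in each stage, the genotype counts were 1 in GM (Srebf2) and 1 in DM3 (Tm7sf2). Of all tested genes that fit called 199 higher and 436 lower in GM, and 452 and 296 in DM3. Line as a replicate block gave 23 and 20 for differentiation in control and tKO cells, and line and culture together as a replicate block gave 27 and 18. Both were chosen after seeing the data.

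The signs that changed belonged to differences near 0. The tKO differentiation difference of Elovl6 was -0.0086 with a pseudocount of 0.1, -0.024 with voom and -0.034 without clone 2. It ranged from -0.44 to 0.42 over libraries left out. That of Stard4 ranged from -0.095 to 0.43. The GM genotype difference of Slc25a1 ranged from -0.16 to 0.0021, and its control differentiation difference was -0.010 without control population 2 and 0.31 with median-of-ratios scaling. Depth did not limit the detection of the 33 genes, since the lowest fragment number was 74.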
